A study of Mus musculus with 2 samples.

Results

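The let-7 family was examined in small RNA sequencing of fed mouse liver. Its members were taken as every listed locus whose miRNA name starts with mmu-let-7, which gave 13 of the 197 named miRNA arms in the data. They were 8 arms from the 5′ side of the hairpin (5p) and 5 from the 3′ side (3p), from 9 hairpin genes on 6 chromosomes. The samples form 1 group, wild-type C57BL/6 animals at 2 to 3 months of age with free access to food, and this group has 2 replicate libraries of liver total RNA. No mutant, treated or fasted group enters here, so levels are described and the only test sets one library against the other. The labels do not say whether the replicates came from separate animals, and the spread between them may be technical.

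MicroRNAs are short RNAs cut from hairpin precursors. One arm is loaded into an Argonaute protein and represses mRNAs that pair with its seed, the bases near its 5′ end. Let-7, first found as a timing gene in the worm, is highly conserved, is abundant in adult tissues and represses growth genes such as Hmga2 and the Ras genes. The RNA-binding protein Lin28 blocks maturation of its precursors. In mice the Lin28 and let-7 pair affects glucose metabolism and insulin signalling, and overexpressed Lin28b in the liver gives tumours.

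The mature 5p sequences show how close the family members are, which bears on every value below because short reads must be assigned among them. They are the RefSeq sequences of build GRCm38.p6, with the seed (bases 2 to 8) in capitals.
mmu-let-7a-5p: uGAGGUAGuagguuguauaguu
mmu-let-7b-5p: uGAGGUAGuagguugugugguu
mmu-let-7c-5p: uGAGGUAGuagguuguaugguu
mmu-let-7d-5p: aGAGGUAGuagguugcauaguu
mmu-let-7e-5p: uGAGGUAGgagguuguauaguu
mmu-let-7f-5p: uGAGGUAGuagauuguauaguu
mmu-let-7g-5p: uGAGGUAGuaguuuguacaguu
mmu-let-7i-5p: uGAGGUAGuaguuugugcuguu
All 8 carry the seed GAGGUAG. No other named arm and no unnamed locus in the files has it, and no arm of miR-98, the seed relative of let-7, is listed. Counting from 1 at the 5′ end, the arms vary at 7 of 22 positions (1, 9, 12, 16, 17, 18 and 19). Among the 28 pairs, the number of substitutions runs between 1 and 6, and 4 pairs are 1 base apart. Written from the first arm of each pair to the second, these are let-7a and let-7c (A19G), let-7a and let-7e (U9G), let-7a and let-7f (G12A), and let-7b and let-7c (G17A). The 5 arms with such a relative held 75.2% of let-7 counts in replicate 2 and 80.8% in replicate 1. No source used here says how reads that fit several members were assigned, so a count can include reads of a relative.

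The 3p arms do not share that seed. The following 3 were listed in both libraries.
mmu-let-7d-3p: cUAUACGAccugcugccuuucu
mmu-let-7i-3p: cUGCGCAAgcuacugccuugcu
mmu-let-7b-3p: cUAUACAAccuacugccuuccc
Each has its own seed, so the counts of let-7d-3p below are not counts of the shared let-7 seed.

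The listed loci held 538023 named miRNA counts in replicate 2 and 306351 in replicate 1, over 183 and 165 arms in that order of libraries. Loci with no miRNA name held 2.46% of all listed counts in replicate 2 and 5.02% in replicate 1. The hepatocyte miRNA miR-122-5p made up 3.04% of named counts in replicate 2 and 2.50% in replicate 1. MiR-192-5p, another hepatocyte miRNA, went the other way, with 1.28% in replicate 2 and 1.46% in replicate 1. No muscle or pancreatic marker was listed in either. No source used here gives the sequencing depth before loci were called.

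No other family was summed, so let-7 is not ranked among families. The single arm miR-22-3p had 182550 counts in replicate 2 and 102898 in replicate 1. All let-7 arms together held fewer, 39820 of the named counts in replicate 2 and 32694 in replicate 1. This is 7.40% (exact Clopper-Pearson 95% interval 7.33 to 7.47) in replicate 2 and 10.7% (10.6 to 10.8) in replicate 1, and 9.04% ± 2.31 on average (SD, n = 2). The arms with the let-7 seed made up 6.24% in replicate 2 and 9.76% in replicate 1, and the 3p arms 1.16% and 0.913% in that order. Intervals cover counting error only, and they are far narrower than the gap between the libraries. Levels are shares of counts, and differences in how well each RNA enters a library were not measured.

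The family was led by the 5p arms of let-7c, let-7a and let-7b. Let-7c-5p had 10720 counts in replicate 2 and 9041 in replicate 1, or 1.99% and 2.95% of named counts in those libraries (2.47% ± 0.678, SD, n = 2). It ranked 11 among all named arms in replicate 2 and 8 in replicate 1. Let-7a-5p had 7981 counts (1.48%) in replicate 2 and 7834 (2.56%) in replicate 1. Let-7b-5p had 8334 (1.55%) in replicate 2 and 7419 (2.42%) in replicate 1. These 3 arms overlapped in their ranges, and let-7a-5p and let-7b-5p changed places between the libraries.

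The next arm was a 3p arm, let-7d-3p, with 6226 counts (1.16%) in replicate 2 and 2784 (0.909%) in replicate 1. It was the rank 18 arm of both libraries. Its range lay below that of let-7b-5p and above that of let-7f-5p, so its place in the order held in both libraries. The other arm of the same hairpin, let-7d-5p, was lower, with 922 counts (0.171%) in replicate 2 and 1134 (0.370%) in replicate 1.

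The remaining 5p arms were lower. Let-7f-5p had 2445 counts (0.454%) in replicate 2 and 1740 (0.568%) in replicate 1. Let-7g-5p had 1909 (0.355%) in replicate 2 and 1536 (0.501%) in replicate 1. Their ranges overlapped with each other, and neighbours among let-7g-5p, let-7d-5p and let-7i-5p also overlapped, although the order was the same in both libraries. Let-7i-5p had 814 counts (0.151%) in replicate 2 and 795 (0.260%) in replicate 1. Let-7e-5p, the lowest 5p arm, had 458 (0.0851%) in replicate 2 and 399 (0.130%) in replicate 1, and its range lay below that of let-7i-5p.

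The other 3p arms were near the floor. Let-7i-3p had 7 counts in replicate 2 and 8 in replicate 1, and let-7b-3p had 2 and 4 in that order. Let-7e-3p and let-7g-3p had 1 count each in replicate 2 and were not listed in replicate 1. Since the files list called loci, no 0 was entered for them.

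**Figure D1:**
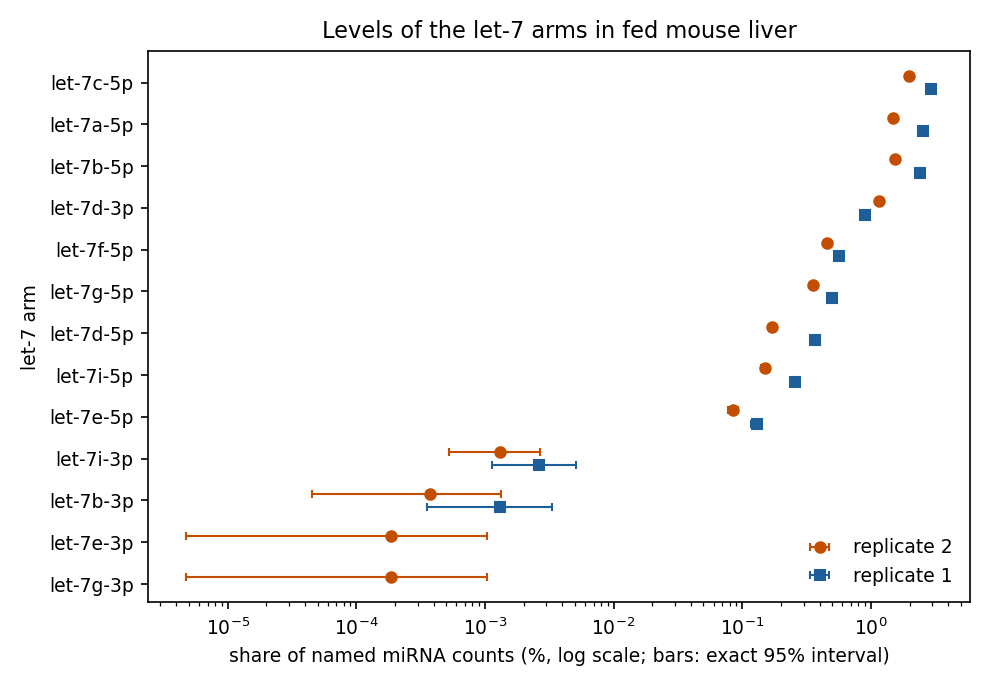
Share of named miRNA counts of each of the 13 let-7 arms (x axis, percent, log scale), as circles for replicate 2 and squares for replicate 1, with exact 95% intervals. Every 5p arm sits further left in replicate 2 than in replicate 1, let-7d-3p sits further right, and the 3p arms other than let-7d-3p lie far below the 5p arms.

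Shares within the family do not depend on how the libraries are scaled. Let-7c-5p made up 26.9% of let-7 counts in replicate 2 and 27.7% in replicate 1. Let-7b-5p made up 20.9% in replicate 2 and 22.7% in replicate 1, and let-7a-5p made up 20.04% in replicate 2 and 24.0% in replicate 1. Together these 3 arms held 67.9% of the family in replicate 2 and 74.3% in replicate 1. The member whose share moved most among those with over 100 counts was let-7d-3p, at 15.6% in replicate 2 and 8.52% in replicate 1. Let-7d-5p moved the other way, with 2.32% in replicate 2 and 3.47% in replicate 1.

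Shares were also taken among the 5p arms alone, which leaves out the change of let-7d-3p. Of the 5p counts, let-7b-5p held 24.8% in both libraries. Let-7c-5p held 31.9% in replicate 2 and 30.2% in replicate 1, and let-7e-5p held 1.36% in replicate 2 and 1.33% in replicate 1. Let-7a-5p held 23.8% in replicate 2 and 26.2% in replicate 1, and let-7g-5p held 5.68% in replicate 2 and 5.14% in replicate 1. Shares of let-7b-5p and let-7e-5p were thus nearly the same in the libraries, while let-7d-5p (2.75% in replicate 2 and 3.79% in replicate 1) and let-7f-5p (7.28% in replicate 2 and 5.82% in replicate 1) moved in opposite directions.

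**Figure D2:**
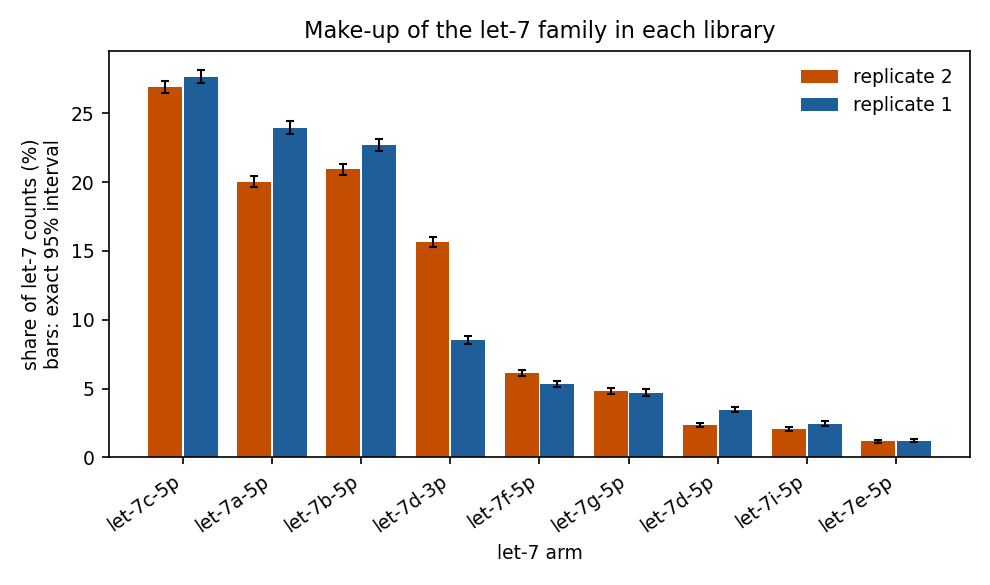
Share of all let-7 counts held by each of the 9 arms with over 100 counts (y axis, percent), as paired bars for replicate 2 on the left and replicate 1 on the right, with exact 95% intervals. Let-7d-3p shows the widest gap of any arm, at 15.6% in replicate 2 and 8.52% in replicate 1.

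Several let-7 RNAs have more than 1 gene in the mouse genome, and the files show how their counts were placed. Let-7a-5p was listed at both of its genes (GRCm38, positions of the listed arm). At Mirlet7a-1, chr13:48538239-48538260 on the minus strand, replicate 2 had 7981 counts and replicate 1 had 7834. At Mirlet7a-2, chr9:41536732-41536755 on the plus strand, replicate 2 had 82 counts and replicate 1 had 106. The share at Mirlet7a-2 was 1.02% (0.810 to 1.26) in replicate 2 and 1.34% (1.09 to 1.61) in replicate 1. The row at Mirlet7a-2 lists 24 bases rather than 22, ending with the UA that follows the arm in that hairpin, so the 2 rows do not list the same RNA. The 22 bases are the same at both genes, and this split does not measure how much each gene was transcribed.

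Let-7c-5p was listed at Mirlet7c-1 alone (chr16:77599672-77599693, plus strand) and let-7f-5p at Mirlet7f-1 alone (chr13:48537889-48537910, minus strand). Their second genes, Mirlet7c-2 and Mirlet7f-2, make the same mature 5p arm and have no row of their own. Counts of let-7c-5p and let-7f-5p are therefore counts of the RNA and not of a gene.

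The genes lie in host transcripts of several kinds in the GENCODE M21 annotation. Mirlet7a-1, Mirlet7f-1 and Mirlet7d overlap exons of the lincRNA gene 6720427I07Rik on chromosome 13. There are 261 bases between the first pair and 1714 between Mirlet7f-1 and Mirlet7d. Mirlet7b (chromosome 15) overlaps an exon of Lncppara, and Mirlet7i (chromosome 10) an exon of the transcribed pseudogene D630033A02Rik. Mirlet7g (chromosome 9) is in an intron of Wdr82, a subunit of a histone methyltransferase complex, and Mirlet7e (chromosome 17) in an intron of Spaca6, a sperm protein gene. Mirlet7c-1 (chromosome 16) is in an intron of Mir99ahg, the host of Mir99a.

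Next, the libraries were compared arm by arm. All 8 let-7 5p arms had a lower scaled level in replicate 2 than in replicate 1, and let-7d-3p had a higher one. Counts were scaled to CPM, counts relative to a library's size, at TMM effective library sizes, which allow for a few arms that take up much of a library (edgeR). A 2-sided exact binomial test with Benjamini-Hochberg adjustment ran over the 131 arms that both libraries list and that have 10 or more counts in sum. This test sets 2 libraries of the same group against each other and not conditions. Of the 10 let-7 arms tested, 8 were lower, where 22.9% of all arms tested were lower. A single one, let-7d-3p, was higher, where 21.4% of all arms tested were higher, and let-7i-3p did not pass. In either direction 44.3% of all arms passed, so a call by itself was common. The 8 lower arms are the 5p arms, which are close in sequence, and a count can include reads of a relative. They are therefore not 8 separate observations. The median log2 ratio, replicate 2 over replicate 1, was -0.47 over the let-7 arms and -0.03 over all arms tested.

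Among the leading members, let-7a-5p had 15699 CPM in replicate 2 and 24163 in replicate 1, a log2 ratio of -0.62 (95% counting interval -0.67 to -0.58, adjusted p = 6.25e-159, exact binomial). Let-7b-5p had 16393 in replicate 2 and 22883 in replicate 1 (log2 ratio -0.48). Let-7c-5p had 21086 in replicate 2 and 27886 in replicate 1 (log2 ratio -0.40). The 5p arms differed among themselves by more than their counting error, with log2 ratios between -0.95 for let-7d-5p and -0.16 for let-7f-5p.

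The arms of the Mirlet7d hairpin parted. Let-7d-5p had 1814 CPM in replicate 2 and 3498 in replicate 1, a log2 ratio of -0.95 (-1.07 to -0.82, adjusted p = 7.90e-49, exact binomial). Let-7d-3p had 12247 in replicate 2 and 8587 in replicate 1, a log2 ratio of 0.51 (0.45 to 0.58, adjusted p = 8.04e-56, exact binomial). Both are made from 1 precursor, and their counts moved in opposite directions between the libraries.

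These p-values hold counting error alone. With the spread between libraries in the test (edgeR's exact test at a common biological coefficient of variation of 0.229), 0 of the 10 let-7 arms were lower and 0 higher. Over all 131 arms, 1 passed at an adjusted p under 0.05 and 8 at an unadjusted p under 0.05. Let-7d-5p was the let-7 arm among the 8, with an unadjusted exact p of 0.0484 and an adjusted p of 0.755. The dispersion in this test was estimated from the same 2 libraries, so few calls could be reached and its outcome says little about let-7 itself. Scaling by totals in place of TMM shifted the median of all arms to -0.19 and called 45 arms lower and 19 higher, against 30 and 28 with TMM, and the let-7 calls stayed at 8 lower and 1 higher.

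Other features of the libraries moved beside the let-7 arms. Markers of stellate and mesenchymal cells summed to 0.342% of named counts in replicate 2, with 4 of 5 listed, and to 0.554% in replicate 1, with 3 of 5 listed. A single marker carried that difference. MiR-145a-5p had 0.130% in replicate 2 and 0.346% in replicate 1, while miR-143-3p had 0.199% in replicate 2 and 0.205% in replicate 1. MiR-214-3p had 16 counts in replicate 2 and 8 in replicate 1. Of the 5 immune markers 1 was listed, miR-150-5p, at 0.197% in replicate 2 and 0.311% in replicate 1. Hepatocyte markers summed to 4.66% in replicate 2, with 5 of 6 listed, and to 4.33% in replicate 1, with 4 of 6 listed. Endothelial markers summed to 0.0355% in replicate 2 and 0.0444% in replicate 1, and biliary ones to 0.0303% in replicate 2 and 0.0196% in replicate 1. Erythroid markers had 14 counts in replicate 2 and none listed in replicate 1, and neural ones had none listed in replicate 2 and 3 counts in replicate 1. Replicate 1 also had fewer counts and the larger share of unnamed loci given above. The part of these values in the let-7 differences was not tested. In whole tissue, fewer cells of a type and less RNA per cell cannot be told apart.

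**Figure D3:**
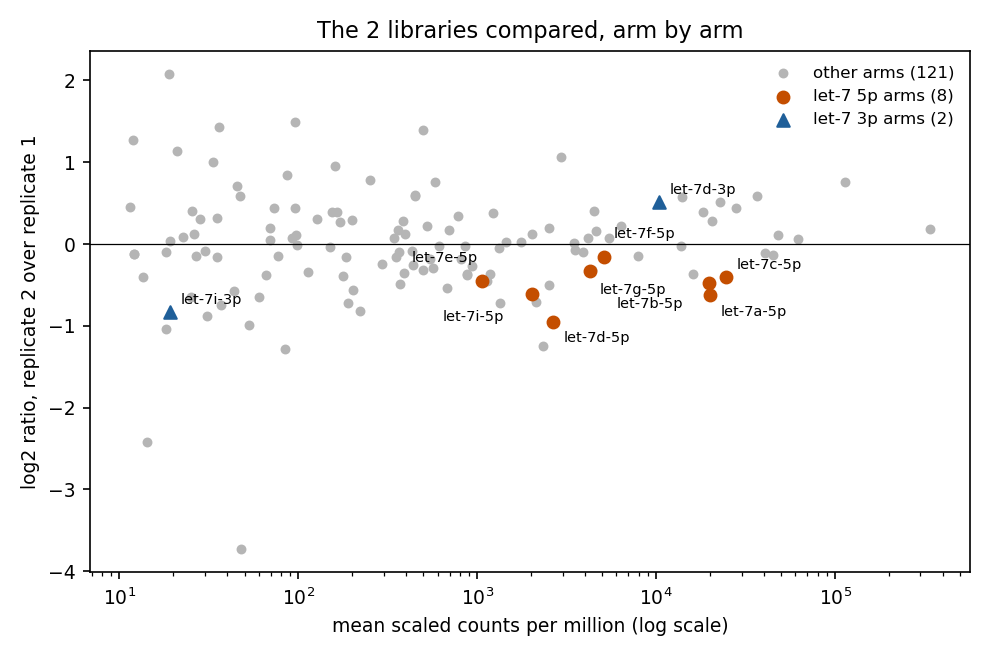
Log2 ratio of replicate 2 over replicate 1 (y axis) against mean scaled CPM (x axis, log scale) for the 131 arms tested. All 8 let-7 5p arms (large circles) lie below 0, at -0.95 to -0.16, the triangles lie at 0.51 for let-7d-3p and -0.83 for let-7i-3p, and the other 121 arms (small circles) spread to both sides.

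Arm shares of the listed counts were compared within hairpins, where library size drops out. Mirlet7d was a hairpin dominated by its 3p arm. The 3p arm held 87.1% of its counts (86.3 to 87.9) in replicate 2 and 71.1% (69.6 to 72.5) in replicate 1, or 79.1% ± 11.3 on average (SD, n = 2). There were 6.75 let-7d-3p counts for each let-7d-5p count in replicate 2, against 2.46 in replicate 1. The 3p share was 16.0 percentage points higher in replicate 2 (Fisher's exact test, 2-sided, adjusted p = 3.24e-90). This p-value also holds counting error alone, and no alternative of this test put in the spread between libraries. The test passed for 4 of 47 hairpins, or 8.51%, and 2 of the 47 had a larger change of the 3p share than Mirlet7d.

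The other testable let-7 hairpins were almost wholly 5p. The 3p share of Mirlet7b was 0.0240% in replicate 2 and 0.0539% in replicate 1 (Fisher's exact test, adjusted p = 0.919). The 3p share of Mirlet7i was 0.853% in replicate 2 and 0.996% in replicate 1 (Fisher's exact test, adjusted p = 1). A difference in arm share was not detectable in these hairpins at 2 to 8 counts of the minor arm. Of the 47 hairpins tested, 25 were dominated by the 3p arm in both libraries, and among the 3 let-7 hairpins tested 1 was. The test needs both arms listed, so hairpins with 1 listed arm are not among the 47. Of the 9 let-7 hairpins, Mirlet7a-1, Mirlet7a-2, Mirlet7c-1 and Mirlet7f-1 had no 3p arm listed in either library. In replicate 2, where the only let-7e-3p and let-7g-3p counts were, the 3p share was 0.218% (0.00552 to 1.21) for Mirlet7e and 0.0524% (0.00133 to 0.291) for Mirlet7g.

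**Figure D4:**
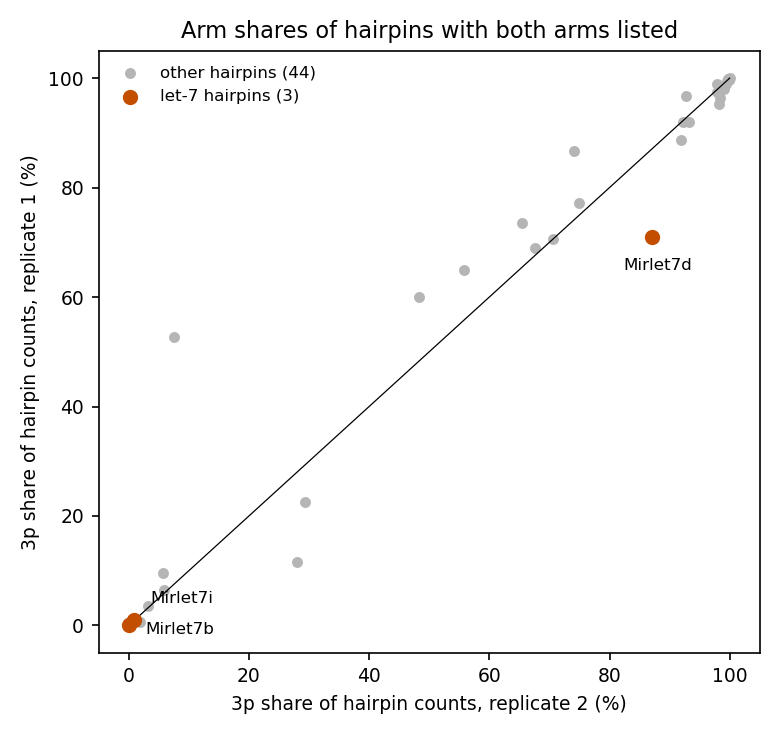
Share of counts that come from the 3p arm in each of the 47 hairpins tested, in replicate 2 (x axis, percent) and replicate 1 (y axis, percent), with a line where both are equal. Mirlet7d lies off the line at 87.1% in replicate 2 and 71.1% in replicate 1, while Mirlet7b and Mirlet7i sit at the lower left corner.

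MicroRNAs of neighbouring genes are often cut from 1 primary transcript, so the arms of let-7 clusters were set side by side. Since let-7a-5p, let-7c-5p and let-7f-5p are also made from genes elsewhere, their ratios are between RNAs and not between neighbours of 1 transcript. In the chromosome 13 cluster there were 3.26 let-7a-5p counts for each let-7f-5p count in replicate 2 and 4.50 in replicate 1. The let-7a-5p count was 8.66 times that of let-7d-5p in replicate 2 and 6.91 times in replicate 1. Against let-7d-3p, the let-7a-5p count was 1.28 times as high in replicate 2 and 2.81 times in replicate 1. Among the arms named at this cluster, let-7d-3p was the closest in count to let-7a-5p in both libraries. On chromosome 15, Mirlet7c-2 and Mirlet7b have 621 bases between them. There were 1.29 let-7c-5p counts for each let-7b-5p count in replicate 2 and 1.22 in replicate 1.

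The miR-99, miR-100 and miR-125 relatives, which share transcripts with Mirlet7c-1, Mirlet7e and Mirlet7a-2, had other levels than let-7. Let-7c-5p had 49.9 counts in replicate 2 and 80.0 in replicate 1 for each count of miR-99a-5p, whose gene lies 656 bases from Mirlet7c-1. Mirlet7c-2 also makes let-7c-5p, so this ratio is not between neighbours alone. Let-7e-5p had 4.82 counts in replicate 2 and 7.98 in replicate 1 for each count of miR-125a-5p, whose gene lies 367 bases away. Toward miR-99b-3p, whose gene is nearer at 94 bases, the ratio went the other way, at 19.1 in replicate 2 and 16.6 in replicate 1, and likewise toward miR-99b-5p, at 45.8 in replicate 2 and 39.9 in replicate 1. The miR-99b arms had 10 and 24 counts in each library. MiR-100-5p, with a gene 5211 bases from Mirlet7a-2, had far fewer counts than let-7a-5p in sum, and more than the 24-base row listed at Mirlet7a-2.

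The partner arms were also set between the libraries. Of 13 looked for, 9 were listed and 7 could be tested, and of those 0 were lower, 2 higher and 5 did not pass (exact binomial test). Over all arms 22.9% were lower and 21.4% higher, and with 7 arms these counts are not a result about the partners. Their median log2 ratio was 0.27, beside -0.03 over all arms. MiR-100-5p had 704 counts in replicate 2 and 345 in replicate 1 (log2 ratio 0.38, adjusted p = 0.000201, exact binomial). MiR-125b-5p had 3477 in replicate 2 and 1909 in replicate 1 at Mir125b-1 (log2 ratio 0.22, adjusted p = 5.53e-07, exact binomial). This gene lies 45114 bases from Mirlet7a-2. In replicate 2, 25 more were listed at Mir125b-2, which lies 46522 bases from Mirlet7c-1. Both genes make miR-125b-5p, and this split does not measure how much each was transcribed. Scaled by totals, the log2 ratio of miR-125b-5p was 0.05 and did not pass (adjusted p = 0.301, exact binomial). That of miR-100-5p was 0.22 and passed (adjusted p = 0.047, exact binomial). MiR-99a-5p, with 215 counts in replicate 2 and 113 in replicate 1, did not pass (log2 ratio 0.28, adjusted p = 0.197, exact binomial). Both miR-99b arms had a log2 ratio of -0.65 and did not pass. With the spread between libraries in edgeR's exact test, 0 of all 131 arms were called higher, these included.

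The listed hairpin sequences differ from RefSeq in the bases that follow the 5p arm, in let-7 and in other hairpins. The windows below run over hairpin positions 15 to 30, counted from 1 at the 5′ end of the 5p arm, so the arm ends at position 22. The RefSeq window comes first and the listed ones follow, with every base that differs from RefSeq in capitals. Mirlet7a-1 is shown as the same in both libraries, Mirlet7c-1, Mirlet7f-1 and Mirlet7i as different between them, and Mirlet7a-2 as the exception at the first base.
Mirlet7a-1 RefSeq: guauaguuuuaggguc
Mirlet7a-1 replicates 2 and 1: guauaguuAuaUgguc
Mirlet7c-1 RefSeq: guaugguuuagaguua
Mirlet7c-1 replicate 2: guaugguuAaUaAuua
Mirlet7c-1 replicate 1: guaugguuAagaAuua
Mirlet7f-1 RefSeq: guauaguuguggggua
Mirlet7f-1 replicate 2: guauaguuAuUgggua
Mirlet7f-1 replicate 1: guauaguuAuggggua
Mirlet7i RefSeq: gugcuguuggucgggu
Mirlet7i replicate 2: gugcuguuAUucUggu
Mirlet7i replicate 1: gugcuguuAUucgggu
Mirlet7a-2 RefSeq: guauaguuuagaguua
Mirlet7a-2 replicate 2: guauaguuuaUUguua
Mirlet7a-2 replicate 1: guauaguuuaUaguua
For Mirlet7a-1 the substitutions are U23A and G26U in both libraries. For Mirlet7c-1 they are U23A, G25U and G27A in replicate 2, and U23A and G27A in replicate 1.

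All 9 let-7 hairpins differed from RefSeq within the 8 bases after the 5p arm, in both libraries. The differences numbered 22 in replicate 2 and 20 in replicate 1, all in the first 5 of those bases, and 0 fell within the 5p arm. Every one of them was a change to A (10 in replicate 2 and 10 in replicate 1) or to U (12 in replicate 2 and 10 in replicate 1). RefSeq has no A at the first base after the arm in any of the 9, and the files list A there in 8 of 9 hairpins (88.9%) in each library. In Mirlet7a-2, the exception, the row's 24-base RNA takes in the UA that follows.

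Other hairpins showed such differences too. Among hairpins whose 5p arm could be matched to RefSeq, 51 of 66 others (77.3%) differed in the 8 bases in replicate 2 and 42 of 60 (70%) in replicate 1. Of their 88 differences in replicate 2, 85 were to A or U, and of 76 in replicate 1, 76 were. As in let-7, nearly all fell in the first 5 bases, 88 in replicate 2 and 75 in replicate 1. Within or before the 5p arm, 2 of the other hairpins differed in each library. An A as the first base after the arm was listed in 19 of 66 others (28.8%) in replicate 2 and in 17 of 60 (28.3%) in replicate 1, where RefSeq has 13 and 11 in the same order. An A at that base was thus listed in a larger share of let-7 hairpins than of other hairpins, a description for which no test was run, since the let-7 hairpins resemble each other in sequence. The 8 bases differed between the libraries in 6 of 9 let-7 hairpins and in 34 of 53 others. In those hairpins the listed letters thus belong to a library as well as to a gene. No source used here states where the letters come from, and the differences are not given here as sequence variants of the genes.

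**Figure D5:**
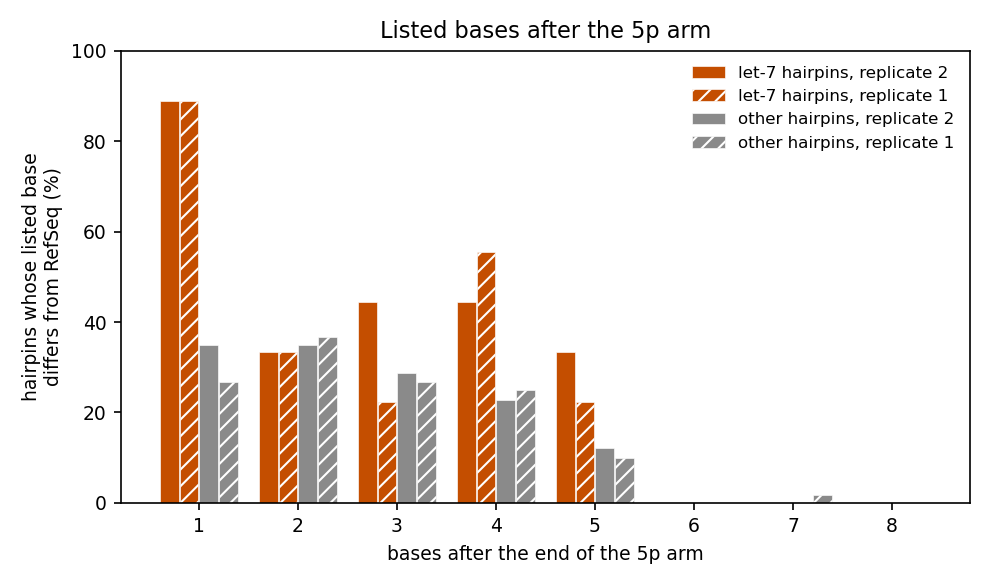
Share of hairpins whose listed base differs from RefSeq (y axis, percent) at each of the 8 bases after the end of the 5p arm (x axis), for the 9 let-7 hairpins and for the other matched hairpins in replicate 2 (plain bars) and replicate 1 (hatched bars). At the first base 88.9% of let-7 hairpins differ in each library. No let-7 hairpin differs past the fifth base, and the other hairpins show 1 difference there, in replicate 1.

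The files also list an end for each 5p arm. Let-7b-5p was listed with 20 bases in both libraries, 2 short of the RefSeq 3′ end. Let-7i-5p was listed with 22 bases in replicate 2 and 20 in replicate 1. The other 5p arms had 22 bases, aside from the 24-base row at Mirlet7a-2. These are the lengths the files list for a row, and the share of reads of each length is not given.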

How the data were processed

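Small RNA from liver was sequenced in 2 replicate libraries of 1 group, and each library used 1 µg of total RNA and the Illumina TruSeq kit for small RNA, according to the labels' protocols. Bowtie 1.0.1, cutadapt 1.5, FastQC 0.11.2 and the GRCm38 (mm10) build are named, per the submitters' processing notes. The authors deposited raw read counts per listed miRNA locus, as whole numbers and not normalised. No source used here names the locus caller, its filters or the treatment of reads with several matches. The strand of each locus is listed.

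Of a name with several loci the highest was used, and loci without a miRNA name (2.46% of counts in replicate 2 and 5.02% in replicate 1) stayed out of totals and tests. File positions were raised by 1. Named counts came to 538023 in replicate 2 and 306351 in replicate 1, and Clopper-Pearson 95% intervals give the counting precision. Libraries were compared by an exact binomial test at TMM effective sizes of 508385 in replicate 2 and 324211 in replicate 1, with a prior count of 0.5 in the log2 ratio and Benjamini-Hochberg adjustment (threshold 0.05). Arms not listed in both libraries were not tested, a restriction set once the files had been read. Arm shares of hairpins with at least 20 counts in each library were compared by Fisher's exact test. With no contrast between groups, edgeR's quasi-likelihood test could not be used, and its exact test with a common dispersion was an alternative, as were DESeq2 size factors, totals, other minimum counts, summed loci and left-out replicates. R 4.3.3, edgeR 4.0.16, DESeq2 1.42.0, Python 3.11.15 and SciPy 1.17.1 were used. The tests were tested on counts simulated with counting error alone. Such counts leave out the spread between libraries, so they do not show how the tests behave on these data. Hairpins were compared with RefSeq over 8 bases past the 5p arm, for 75 of 103 listed 5p rows in replicate 2 and 69 of 91 in replicate 1 that could be matched.

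The arms named are all let-7 arms, arms with the let-7 seed, the cluster partners and tissue markers. Members and lists were chosen with earlier results of these data known.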

Additional observations from a re-analysis of the deposited data

How the results depend on the processing

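Apart from the exact test of edgeR, no alternative changed a let-7 call. With DESeq2 size factors, totals of named counts, no minimum count, at least 50 counts summed, unlisted arms as 0, summed loci, a prior count of 5 or TMM factors from the other arms (chosen after seeing the data), 8 let-7 arms were lower and 1 higher. With edgeR's exact test and a common dispersion, 0 were lower and 0 higher. That test adds the spread estimated from these same libraries, and the call fell away for all 9 let-7 arms, with the same direction. Of 113 alternative values and counts of the let-7 tests, 102 kept their direction and side of the threshold, 11 lost the call under that test and 0 turned round. Shares have no threshold, and 35 of 35 moved by less than the spread between replicates when loci were summed or unnamed loci entered the total. Leaving out 1 of 2 libraries leaves the other's own share, so it tests nothing. Partner ratios were run under the same settings after seeing the data, and miR-125b-5p also lost its call with totals (log2 ratio 0.05). Treating unlisted arms as 0 raised the calls over all arms to 34 lower and 42 higher. No paired analysis was possible because there is 1 group. Depth limits the 3p arms other than let-7d-3p, at 1 to 8 counts a library, and with 2 libraries an SD is itself uncertain.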

Other observations

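The structures drawn with the listed hairpins split the let-7 genes by the pairing of the seed. They are structures of the listed letters, which differ from RefSeq in every let-7 hairpin, and not of the RefSeq precursors. Mirlet7a-2, Mirlet7c-1 and Mirlet7e were listed with hairpins of 65 bases and an unpaired base 5, which is in the seed, in both libraries. Base 9 was also unpaired in Mirlet7a-2 and Mirlet7c-1. The other 6 genes had listed hairpins of 71 to 77 bases in their 5p rows and no unpaired base in the seed. As background, in human cells the precursors of let-7a-2, let-7c and let-7e are the ones that do not need a uridine added before Dicer cuts them. No relation of these structures to the counts was tested.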
